A study of Mus musculus with 10 samples.

Results

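The antioxidant genes of the NRF2 pathway described here are Nfe2l2, Keap1, Nqo1, Gclc, Gclm, Txnrd1, Srxn1, Slc7a11, Osgin1 and G6pdx. They were taken by gene symbol, as a set chosen with earlier results of these data known. All 10 were found among the 49568 genes of the expression table, and all 10 were among the 14870 genes with a mean of at least 10 normalized reads that were tested.

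RNA was sequenced from reactive cholangiocytes, the cells that line bile ducts and expand when ducts are injured, of 5 Ctl mice and 5 Smad4del mice. Smad4del mice carried Smad4fl/fl and Alb-Cre, in which the albumin promoter drives Cre recombinase in the hepatocyte and cholangiocyte lineage, so that Smad4, the shared partner of the receptor-regulated SMAD proteins in TGFβ and BMP signalling, is deleted there. Ctl mice are labelled Smad4wt/wt and had no Alb-Cre by the study's methods, so Cre is present in only 1 cohort and its effect cannot be told apart from the loss of Smad4. Mice of both cohorts were of mixed background and ate 0.1% DDC, a porphyrinogenic agent that injures bile ducts, for 2 weeks, so there is no uninjured sample here. Live EPCAM+/CD45-/TER119- cells were sorted from each liver, and 1 library was made per mouse. Age and sex of the single mice are not in the labels used here. The labels give each mouse as a cell line and describe cell culture, whereas the methods describe sorted cells, as taken here.

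NRF2, the protein product of Nfe2l2, is a transcription factor that is held at low levels by KEAP1, an adaptor of a CUL3 ubiquitin ligase. Oxidants and electrophiles modify KEAP1, NRF2 then escapes degradation, pairs with small MAF proteins and binds antioxidant response elements of genes for glutathione synthesis, thioredoxin reduction, NADPH supply and quinone detoxification. In the liver the pathway is known for its part in the response to bile acids, porphyrins and other toxic metabolites.

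Libraries held 16249719 to 21277339 reads on genes in Ctl mice and 16734672 to 19710560 in Smad4del mice, as recovered from the normalized counts. Smad4 fell from 3389 ± 347 normalized reads (SD, n = 5) to 877 ± 144 (SD, n = 5), a log2 fold change of -1.96 ± 0.123 (SE) with an adjusted p of 1.09e-05 by limma, and the cohorts did not overlap. Of the cholangiocyte markers, 2 of 15 rose, 1 fell and 12 did not pass the limma test (5 and 1 were called higher and lower by DESeq2), and their summed level was 503183 to 701968 in Ctl and 694753 to 850269 in Smad4del mice, Spp1 being the most abundant. Markers of other cells were not level between cohorts. Endothelial markers fell for 12 of 14 genes, from a summed level of 22132 to 67239 normalized reads in Ctl mice to 7211 to 16054 in Smad4del mice, with Ptprb the most abundant. Macrophage and leukocyte markers, led by Lyz2, were below 0 in log2 fold change for 14 of 14 genes, and 13 of these had an unadjusted p under 0.05, but 0 passed after adjustment by limma, DESeq2 or edgeR. Their summed level was 13210 to 290786 in Ctl and 3348 to 85097 in Smad4del mice, highest in A5215 and in A5216. Hepatocyte markers, led by Gc, passed for 0 of 13 genes by limma (4 at an unadjusted p under 0.05, and 3 called higher by DESeq2 and 0 by edgeR), at a summed 73817 to 103365 in Ctl and 78533 to 115769 in Smad4del mice. Stellate and fibroblast markers, led by Rgs5, fell for 2 of 10 genes, at a summed 30694 to 57409 and 20852 to 30318, and DESeq2 called 5 of them lower. Erythroid markers passed for 0 of 5 tested genes by limma, DESeq2 and edgeR (0 at an unadjusted p under 0.05), with Hbb-bs the most abundant. In bulk samples like these, fewer cells of a type and less RNA per cell cannot be told apart.

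Sequence at the starts of the 10 genes was examined for the core of the antioxidant response element on either strand. This core is TGAC followed by any 3 bases and GC. The RefSeq windows (GRCm38.p6) ran from 250 bases before to 50 bases after each gene's start. Of the 10 genes, 9 matched an entry, with 11 windows between them. Gclc had no entry. The motif was in 5 of these 11 windows (45.5%), against 12.4% of all 32851 windows. The 5 were those of Nfe2l2, Gclm, Srxn1 and G6pdx and 1 of 3 of Txnrd1. By gene, 5 of 9 held it, against 14% of all 27025 genes. The genes were picked as NRF2 pathway genes, so these shares are no test. No match overlapped the AP-1 motif, TGACTCA or TGAGTCA. Shown are the 3 matches that lie upstream of the start and, with the bases around them, outside the annotated exons of their gene. They are written in the direction of the gene, with the match in capitals.
Nfe2l2, chr2:75704870-75704913, minus strand: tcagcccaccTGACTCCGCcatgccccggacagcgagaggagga
Gclm, chr3:122245398-122245456, plus strand: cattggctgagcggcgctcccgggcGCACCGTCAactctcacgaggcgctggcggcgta
Txnrd1, chr10:82859089-82859147, plus strand: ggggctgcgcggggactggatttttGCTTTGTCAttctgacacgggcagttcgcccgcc

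The matches of Gclm and Txnrd1 read on the opposite strand, 134 and 92 bases before the start, and that of Nfe2l2 in the direction of the gene, 240 bases before it. In Srxn1 the match lay 28 bases after the start. In G6pdx it lay 57 bases before the start, and the match with the bases around it overlaps an annotated exon. The windows of Keap1, Nqo1, Osgin1 and Slc7a11 do not hold these letters. A match is a description of the letters, and no binding was measured.

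Across the 10 genes, 0 passed the limma test in either direction at an adjusted p of 0.05, where 2.43% of all tested genes rose and 4.69% fell in Smad4del mice. At an unadjusted p under 0.05, 2 of the 10 (Nqo1 and Gclc) were found, against 27.4% of all genes. The log2 fold change was above 0 for 5 of the 10 and below 0 for 5, against 49.4% above 0 for all genes, with a median of 0.05 beside -0.005 for all genes. The cohorts overlapped for each of the 10, while 8.09% of all tested genes did not overlap. Each of these shares is near or below that of all genes, and the description that follows is of the single genes and their spread between mice.

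**Figure D1:**
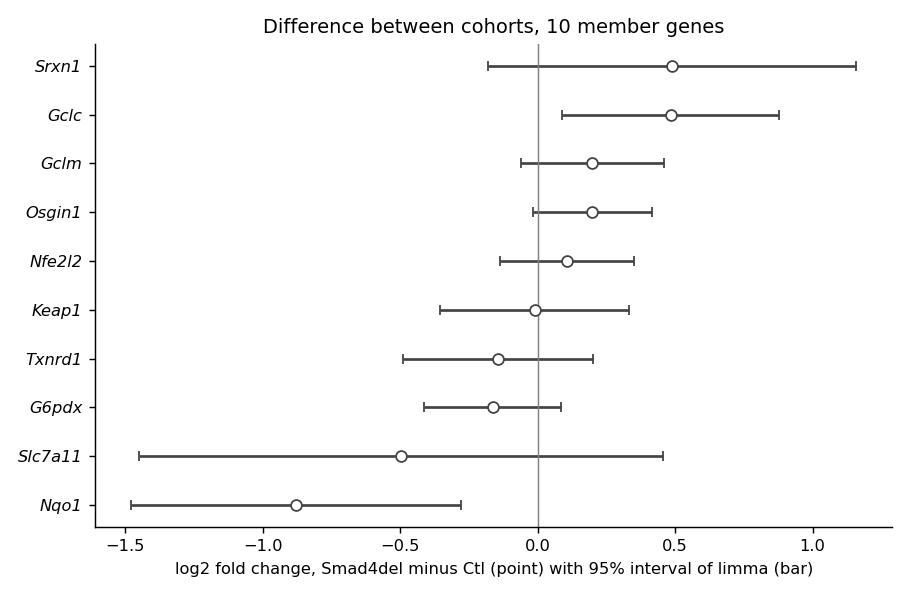
Log2 fold change of the 10 NRF2 pathway genes, Smad4del minus Ctl (x axis), by gene (y axis), with points for the limma estimate and bars for its 95% interval (5 mice per cohort). The intervals of Nqo1 (-1.48 to -0.28) and Gclc (0.09 to 0.88) leave out 0, those of the other 8 genes span it, and none passes after adjustment over all tested genes.

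In the sentences that follow, values are normalized reads of the Ctl mice A5215, A5219, A5221, A5626 and A5628 and of the Smad4del mice A5216, A5217, A5218, A5447 and A5624, in these orders. The 2 regulators come first. Nfe2l2 (ENSMUSG00000015839.6, chr2:75675513-75704641, minus strand, GRCm38) had 7534, 7708, 6511, 5762 and 8456 in Ctl mice and 6781, 7494, 8516, 8485 and 7255 in Smad4del mice. The cohorts overlapped, with the 2 lowest mice in the Ctl cohort (A5626 and A5221) and the 2 highest in the Smad4del cohort (A5218 and A5447). Its log2 fold change was 0.11 ± 0.111 (SE), with a 95% interval from -0.14 to 0.35 and an adjusted p of 0.563 by limma, and it was 0.03 without A5626 and 0.17 without A5628. NRF2 activity is controlled mainly through the stability of the protein, which was not measured.

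Keap1 (ENSMUSG00000003308.15, chr9:21229730-21239361, minus strand) had 852, 899, 997, 1017 and 826 in Ctl mice and 600, 973, 1019, 910 and 1138 in Smad4del mice. A5216 was the lowest of all mice and A5624 the highest, so that the spread in Smad4del mice (coefficient of variation 21.7%) was wider than in Ctl mice (9.31%). The log2 fold change of -0.01 ± 0.157 (SE; interval -0.35 to 0.33; limma adjusted p = 0.973) changed sign when A5216 was left out, to 0.14. Exons of Keap1 overlap those of Gm16754 on the other strand, and without strand the reads of both cannot be told apart on the shared stretch.

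The genes of cystine uptake and glutathione synthesis come next. Slc7a11 (ENSMUSG00000027737.10, chr3:49892526-50443614, minus strand) encodes the light chain of the transporter that brings in cystine, the source of the cysteine in glutathione. It had 254, 158, 163, 108 and 121 in Ctl mice and 302, 101, 146, 49.7 and 67.9 in Smad4del mice. A5215 and A5216 were the highest of their cohorts, and these are also the mice with the highest macrophage and leukocyte marker levels. Its log2 fold change was -0.50 ± 0.437 (SE; interval -1.45 to 0.46; limma adjusted p = 0.485), and with the macrophage marker level in the model it was 0.33 ± 0.368 (SE; adjusted p = 0.623). Without that covariate, leaving out 1 mouse gave values between -0.22 (without A5447) and -0.86 (without A5216), with -0.32 without A5215 and -0.33 without A5624. It was the lowest of the 10 genes, with 54 to 291 recovered reads per mouse, and had the widest interval.

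Gclc (ENSMUSG00000032350.9, chr9:77754535-77794485, plus strand) encodes the catalytic subunit of glutamate-cysteine ligase, the rate-limiting enzyme of glutathione synthesis. It had 4161, 4668, 3351, 3874 and 4701 in Ctl mice and 5089, 8662, 5269, 4049 and 6737 in Smad4del mice. Of the 5 Smad4del mice, 4 were above every Ctl mouse, A5217 was the highest, and only A5447 lay within the range of Ctl mice. A log2 fold change of 0.48 ± 0.180 (SE; interval 0.09 to 0.88), which is 1.40-fold, gave an unadjusted p of 0.0202 and an adjusted p of 0.113 by limma, and the exact permutation test of this gene alone gave p = 0.0476, two-sided.

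Gclm (ENSMUSG00000028124.15, chr3:122245557-122270732, plus strand) encodes the modifier subunit of the same ligase. Its values were 3884, 3507, 4131, 4056 and 4237 in Ctl mice and 4853, 5792, 3809, 3739 and 4808 in Smad4del mice. Of the Smad4del mice, 3 were above the narrow Ctl range, A5217 again the highest, and 2 inside it. For Gclm the log2 fold change was 0.20 ± 0.120 (SE; interval -0.06 to 0.46; limma adjusted p = 0.301), and 0.11 without A5217. Exons of Gclm overlap those of Gm17494 on the other strand and Gm6061 on the same strand. How reads on shared stretches were assigned is not stated, so some may be missing from its count or not be its own.

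The thioredoxin branch was represented by Txnrd1 and Srxn1. Txnrd1 (ENSMUSG00000020250.10, chr10:82833951-82897712, plus strand), the cytosolic thioredoxin reductase, had 6869, 3898, 3797, 4823 and 4482 in Ctl mice and 4532, 4679, 3281, 4478 and 4280 in Smad4del mice. A5215 was the highest mouse and A5218 the lowest, with the other 8 mice between 3797 and 4823. Between cohorts the difference was -0.14 ± 0.158 on the log2 scale (SE; interval -0.49 to 0.20; limma adjusted p = 0.582), and without A5215 it was -0.004.

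Srxn1 (ENSMUSG00000032802.8, chr2:152105516-152111376, plus strand) encodes sulfiredoxin, which restores overoxidized peroxiredoxins. It had 1987, 2036, 1104, 1860 and 1392 in Ctl mice and 2713, 4602, 1547, 1291 and 2521 in Smad4del mice. Of the Smad4del mice, 3 (A5216, A5217 and A5624) were above every Ctl mouse and the other 2 were inside the Ctl range. Its log2 fold change of 0.49 ± 0.307 (SE; interval -0.18 to 1.16; limma adjusted p = 0.324) was the largest positive value of the 10 genes, and without A5217 it was 0.24. The coefficient of variation was 51.5% in Smad4del mice and 24.4% in Ctl mice.

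Nqo1 (ENSMUSG00000003849.8, chr8:107388225-107403206, minus strand), the quinone reductase used most often as a readout of NRF2, had the largest difference of the 10 genes. Its values were 581, 435, 583, 476 and 715 in Ctl mice and 398, 352, 156, 231 and 467 in Smad4del mice. All 5 Smad4del mice were below the Ctl median and 4 of them below every Ctl mouse. Only A5624 reached into the range of Ctl mice, just above A5219. Its log2 fold change of -0.88 ± 0.275 (SE; interval -1.48 to -0.28) is a level of 0.544 times that of Ctl mice, with an unadjusted p of 0.00777 and an adjusted p of 0.0701 by limma, and the exact permutation test of this gene alone gave p = 0.0159, two-sided, where the smallest possible is 0.00794.

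Osgin1 (ENSMUSG00000074063.10, chr8:119434124-119446256, plus strand), an oxidative stress-induced growth inhibitor, had 4478, 4416, 4024, 4349 and 5180 in Ctl mice and 4533, 4880, 5969, 5724 and 4721 in Smad4del mice. All 5 Smad4del mice were above the Ctl median, but the Ctl mouse A5628 was above 3 of them. Its log2 fold change was 0.20 ± 0.099 (SE; interval -0.02 to 0.41; limma adjusted p = 0.215).

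G6pdx (ENSMUSG00000031400.10, chrX:74409483-74429194, minus strand) encodes glucose-6-phosphate dehydrogenase, which feeds the pentose phosphate pathway and yields NADPH. It had 3208, 2267, 2700, 2630 and 2488 in Ctl mice and 2709, 2528, 1977, 2507 and 2143 in Smad4del mice. The Ctl mouse A5215 stood above all others and 2 Smad4del mice lay below every Ctl mouse. For G6pdx the log2 fold change was -0.16 ± 0.114 (SE; interval -0.41 to 0.08; limma adjusted p = 0.370) and was -0.09 without A5215. Exons of G6pdx overlap those of Ikbkg on the other strand.

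**Figure D2:**
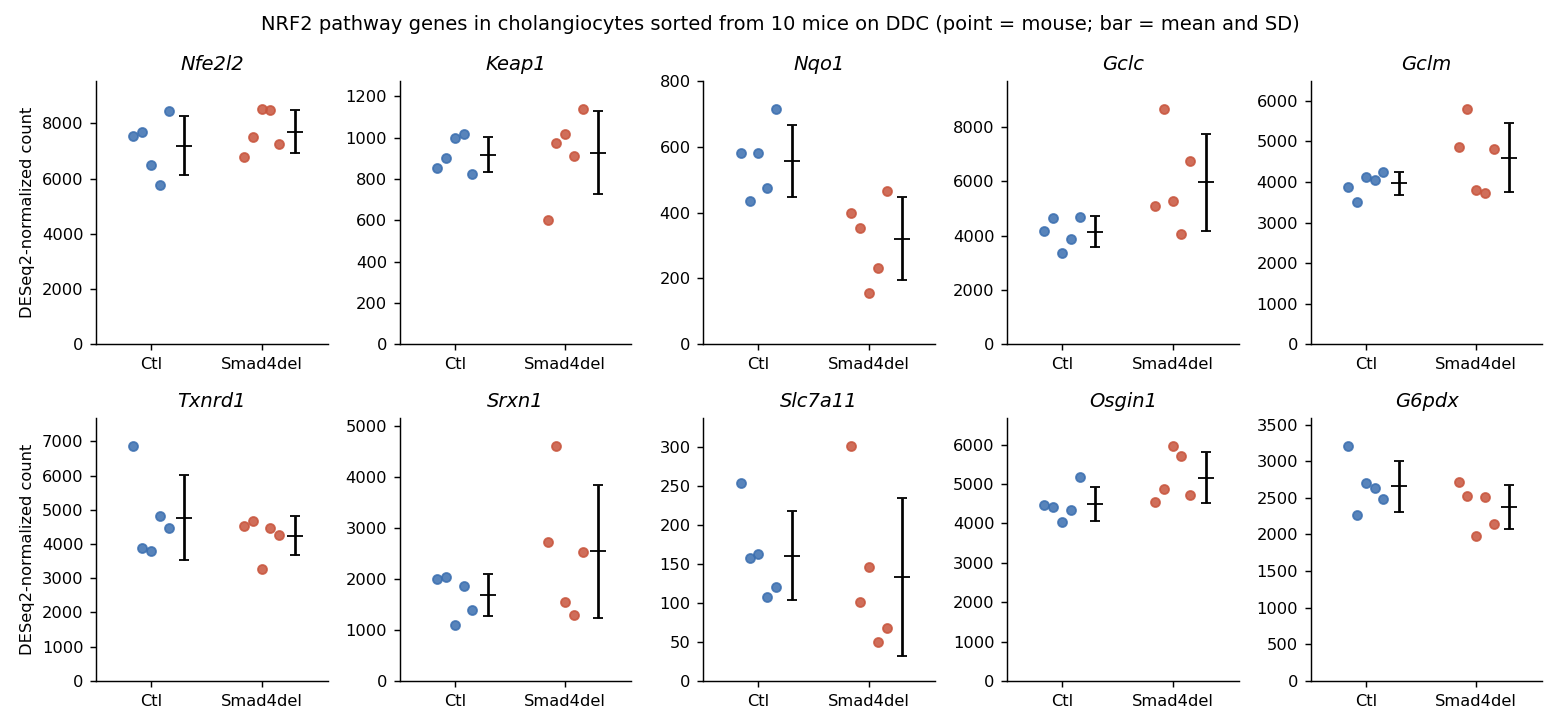
Normalized read count (y axes, linear from 0) of the 10 genes in Ctl and Smad4del mice, each point being a mouse, beside the mean and its SD (5 mice per cohort). For Nqo1, 4 of 5 Smad4del mice lie below every Ctl mouse and for Gclc 4 of 5 lie above, while Gclm and Srxn1 have 3 above; for Keap1 the lowest and the highest mouse are both Smad4del mice.

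The 2 genes with the smallest p, Nqo1 and Gclc, were near the threshold and crossed it under some settings. For the other members the exact permutation test gave p from 0.0873 (Osgin1) to 0.960 (Keap1). The p of this test were not adjusted over the members. DESeq2 on the recovered reads of 10 mice called Nqo1 lower (log2 -0.80, adjusted p = 0.0314) and Gclc higher (0.52, adjusted p = 0.0350), so that 1 of the 10 genes was called in each direction, where 6.01% of all tested genes were called higher and 8.68% lower. Without A5217 neither passed in DESeq2 (adjusted p = 0.0582 for Nqo1 and 0.152 for Gclc), and edgeR on 10 mice gave 0.0970 and 0.106. With limma, Nqo1 passed when the hepatocyte marker level was a covariate (log2 -1.04, adjusted p = 0.0400), and Gclc passed when A5447 was left out (0.61, adjusted p = 0.0422).

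The mice numbered A5215 to A5221, A5447 and A5624 to A5628 form ranges of numbers whose meaning the labels do not give. In the first of these the cohorts were separate for both genes. Nqo1 was 435 to 583 in 3 Ctl mice and 156 to 398 in 3 Smad4del mice, and Gclc 3351 to 4668 and 5089 to 8662. Both genes were picked for their small p. The share of all tested genes that separate in these mice alone was not computed. The range around A5447 holds 1 Smad4del mouse and no Ctl mouse. In the last, A5624 had 467 of Nqo1 beside 476 and 715 in Ctl mice, and 6737 of Gclc beside 3874 and 4701. With the range of numbers as a term, limma gave a log2 fold change of -0.73 for Nqo1 (adjusted p = 0.134) and 0.63 for Gclc (adjusted p = 0.0514).

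The endothelial marker level did not overlap between cohorts. With it as a covariate the log2 fold change of Nqo1 was -0.08 ± 0.503 (SE; adjusted p = 0.995) and that of Gclc 0.36 ± 0.375 (SE; adjusted p = 0.995), and no gene of the 14870 passed, with 745 at an unadjusted p under 0.05. Cohort and endothelial marker level cannot be told apart in these mice.

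**Figure D3:**
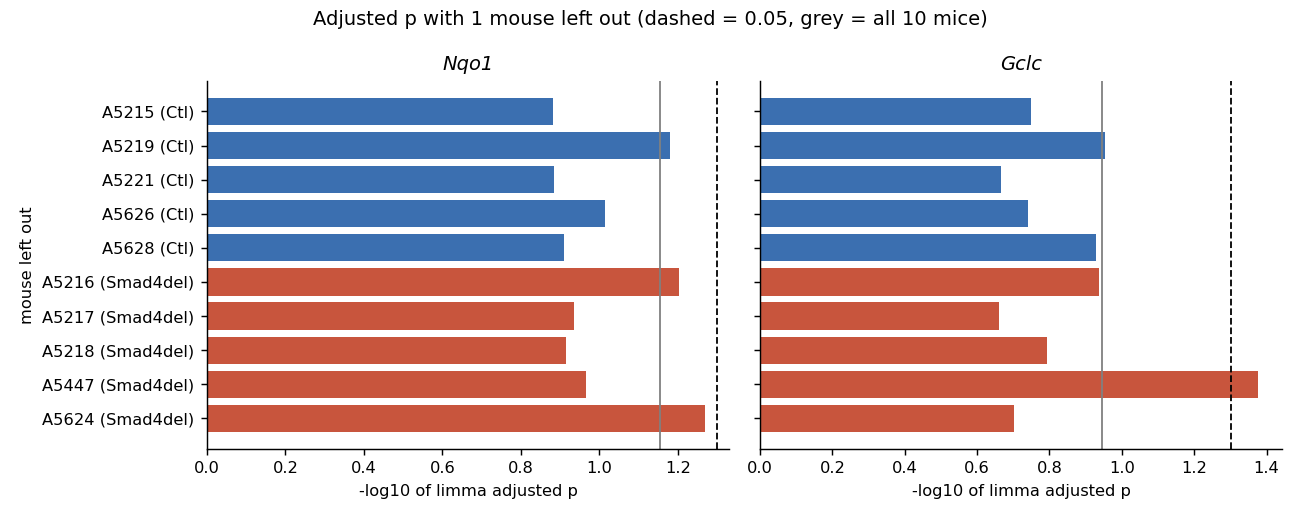
Minus log10 of the limma adjusted p (x axes) of Nqo1 and Gclc when 1 mouse is left out (y axis), with Ctl mice in blue and Smad4del mice in red; the grey line is the value with all 10 mice and the dashed line 0.05. Nqo1 stayed short of the dashed line in each of the 10 fits (0.0539 to 0.131), and Gclc passed it only without A5447 (0.0422).

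Levels were compared between genes after division by the length of the gene's merged exons in GENCODE M21. On this scale of normalized reads per kilobase Nfe2l2 was the highest with 1895 ± 279 (SD, n = 5) in Ctl and 2030 ± 203 (SD, n = 5) in Smad4del mice. Osgin1, Gclc, G6pdx, Srxn1, Gclm and Txnrd1 followed in this order of their means over all mice, and each overlapped its neighbours in range. Nqo1 (359 ± 70.3 in Ctl and 207 ± 81.0 in Smad4del mice, SD, n = 5 each) lay below Txnrd1 in every mouse without overlap of the ranges (463 to 969 for Txnrd1 and 101 to 460 for Nqo1). Keap1 overlapped Nqo1, at 196 ± 18.2 and 198 ± 42.9. Slc7a11 was the lowest, at 11.5 ± 4.09 and 9.57 ± 7.26, below Keap1 in all 10 mice.

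The 10 genes did not vary together as 1 block from mouse to mouse. Over 10 mice, 45 pairs were correlated on the log2 scale. Nfe2l2 and Osgin1 had the smallest p, with a Pearson r of 0.790 (permutation p = 0.00354, adjusted 0.114) and a Spearman rho of 0.794 (permutation p = 0.00892, adjusted 0.401), and r was 0.790 within cohorts and 0.802 without the 2 mice farthest from the median of Nfe2l2. Gclc and Srxn1 had r = 0.839 (permutation p = 0.00506, adjusted 0.114) and rho = 0.709 (permutation p = 0.0263, adjusted 0.503), and r was 0.813 within cohorts and 0.542 without the 2 farthest mice. Txnrd1 and G6pdx had r = 0.818 (permutation p = 0.00986, adjusted 0.148) and rho = 0.661 (permutation p = 0.0444, adjusted 0.503), which came to 0.246 without the 2 farthest mice and so rested on these. No pair passed after adjustment over the 45.

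Seen by mouse, A5217 had the highest Gclc, Gclm and Srxn1 of all 10 mice, with Nqo1 below every Ctl mouse, and it had the highest hepatocyte marker level of the Smad4del mice. A5218 had the highest Nfe2l2 and Osgin1 and the lowest Nqo1, Txnrd1 and G6pdx. The highest Txnrd1 and G6pdx were both in A5215. With the hepatocyte marker level as a covariate in limma, the log2 fold change of Gclc was 0.36 (adjusted p = 0.172). That of Gclm was 0.12 (adjusted p = 0.508) and that of Srxn1 0.17 (adjusted p = 0.472). Each of these was below its value without the covariate. Farther from 0 with it were Nfe2l2 (0.15), Osgin1 (0.24), Nqo1 (-1.04), Txnrd1 (-0.25), G6pdx (-0.21) and Slc7a11 (-0.64), and Keap1 turned to 0.03. The part of hepatocyte RNA in these values was not tested.

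**Figure D4:**
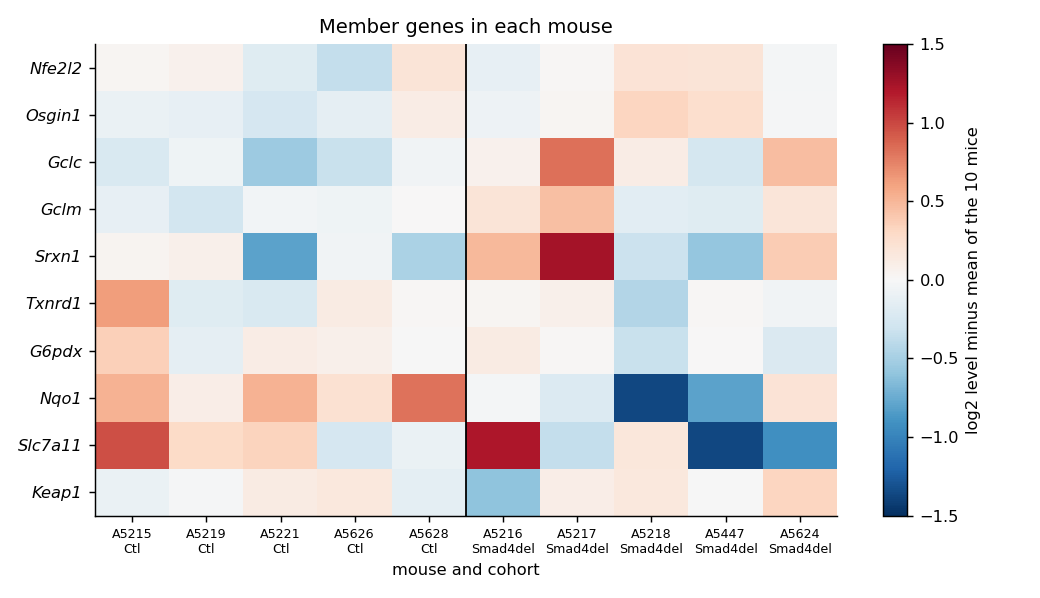
Log2 level of the 10 genes (rows) in each mouse (columns, Ctl to the left of the line) minus the mean of the gene over the 10 mice, on a colour scale from -1.5 (blue) to 1.5 (red). Srxn1, Gclc and Gclm are reddest in A5217, Nqo1 is bluest in A5218, and Slc7a11 is reddest in A5215 and A5216 of their cohorts.

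Genes whose level over the mice was most like the 8 enzymes, transporters and targets (all but Nfe2l2 and Keap1) were found with the Pearson correlation to the mean standardized log2 level of those 8, which ranged from -0.54 in A5218 to 0.75 in A5217. The 5 most alike of other genes were Aadat (r = 0.930), Rilp (0.909), Serpina1a (0.896), Meiob (0.884) and Osbpl1a (0.878), and within cohorts r was 0.894 to 0.931 for them. Serpina1a is a secreted hepatocyte protein and is in the hepatocyte marker list. These correlations over 10 mice were picked as the highest of all tested genes and are a description only.

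Other genes of the pathway were taken in 5 lists with 94 genes, of which 93 were tested. Of these, 7 rose (7.53%, beside 2.43% of all tested genes), 3 fell (3.23%, beside 4.69%) and 83 did not pass. A value above 0 was found for 59 of 93, with a median of 0.14 beside -0.005 for all genes. The cohorts did not overlap for 8 of the 93, near the share of 8.09% of all tested genes. DESeq2 on 10 mice called 20 of the 93 higher and 3 lower, where 6.01% of all tested genes were called higher and 8.68% lower. Without A5217 it called 8 higher and 3 lower, and the share of all genes called in that fit is not given here. Over all 14870 genes, those at an unadjusted p under 0.05 by DESeq2 were 4200 with 10 mice and 3351 without A5217.

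Partners and regulators of NRF2, namely its relatives, the small MAF proteins, BACH repressors and the ligase and kinase parts that lead to its degradation, gave 0 calls among 14 genes in either direction by limma, DESeq2 and edgeR, with 3 at an unadjusted p under 0.05 by limma. Of the 14 genes 11 were below 0, with a median of -0.17. The smallest p were those of Bach1, a repressor at antioxidant response elements, with 279 ± 74.4 (SD, n = 5) and 164 ± 72.9 (SD, n = 5) normalized reads (log2 -0.83, limma adjusted p = 0.102), and Nfe2l3, with 580 ± 147 and 399 ± 71.2 (log2 -0.52, limma adjusted p = 0.123). Sqstm1, the KEAP1-binding autophagy receptor p62, had the highest mean, at 22659 ± 2156 and 20155 ± 1895 (adjusted p = 0.259).

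Glutathione metabolism held 2 genes that rose, 3 that fell and 14 that did not pass by limma, of 19. DESeq2 on 10 mice called 3 higher and 3 lower, and edgeR 1 and 3. Gss, glutathione synthetase, which completes glutathione after the step of Gclc and Gclm, had 1782, 2049, 1884, 1868 and 1949 in Ctl mice and 2337, 2719, 2487, 2379 and 2653 in Smad4del mice. Every Smad4del mouse was above every Ctl mouse, with a log2 fold change of 0.40 ± 0.075 (SE, limma adjusted p = 0.0112), and the call held in all 10 fits that left out 1 mouse. Ggct, gamma-glutamylcyclotransferase of the glutathione breakdown cycle, rose by 0.62 ± 0.167 (SE) on the log2 scale (limma adjusted p = 0.0447), a call that held in 2 of the 10 such fits.

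The 3 genes that fell were Gpx3, Gpx8 and Slc3a2. Slc3a2, the heavy chain that carries SLC7A11 and other light chains to the membrane, had 9029, 3817, 5362, 4711 and 3520 in Ctl mice and 3619, 2346, 2278, 2766 and 2534 in Smad4del mice. Only A5216 reached into the Ctl range, and the log2 fold change was -0.90 ± 0.228 (SE, limma adjusted p = 0.0369). Gpx3, the secreted glutathione peroxidase, had 4660, 1183, 2991, 1993 and 802 in Ctl mice against 1032, 525, 633, 516 and 579 (log2 -1.60 ± 0.408 (SE), limma adjusted p = 0.0382).

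Gpx8, a peroxidase of the endoplasmic reticulum, had 236, 207, 258, 260 and 151 against 60.1, 115, 112, 119 and 119, with no overlap (log2 -1.09 ± 0.245 (SE), limma adjusted p = 0.0234). Of the 10 fits that left out 1 mouse, the call held in 3 for Gpx3 (adjusted p up to 0.0920), in 5 for Slc3a2 (up to 0.0919) and in 8 for Gpx8 (up to 0.0596). In Slc3a2 and Gpx3 A5215 was the highest mouse, and A5216 the highest of the Smad4del mice. In Slc7a11 each of these mice was the highest of its cohort, with A5216 above A5215. With the macrophage marker level in the model none of the 3 passed (log2 -0.52, -0.81 and -1.17 for Slc3a2, Gpx3 and Gpx8, adjusted p = 0.165, 0.160 and 0.0579). Gpx1, the most abundant gene of the list, had 18855 ± 4400 and 20976 ± 5159 (adjusted p = 0.648).

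Thioredoxin and peroxiredoxin genes were above 0 for 13 of 17, with a median of 0.25, and 1 of the 17 passed by limma. At an unadjusted p under 0.05 by limma were 7 of the 17. DESeq2 on 10 mice called 5 higher and 0 lower, where 6.01% of all tested genes were called higher, and edgeR called 1 and 0. Prdx6, a peroxiredoxin that also acts on phospholipid peroxides, had 5465, 6457, 6229, 6453 and 5930 in Ctl mice and 8375, 9473, 7914, 7253 and 7319 in Smad4del mice. The cohorts did not overlap, with a log2 fold change of 0.40 ± 0.089 (SE, limma adjusted p = 0.0236), and the call was lost without A5221, without A5217 and without A5218 (adjusted p up to 0.0567). Prdx1, the most abundant of the list and a substrate of sulfiredoxin once overoxidized, had 26914 ± 2087 and 34449 ± 4922 (log2 0.35, limma adjusted p = 0.0684).

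NADPH supply, the list that G6pdx would belong to, was above 0 for 10 of 12 genes, with 2 that rose by limma. DESeq2 on 10 mice called 3 higher and edgeR 1, with 0 lower by either. Idh2, mitochondrial isocitrate dehydrogenase and the most abundant of the list, had 5337, 6493, 6370, 6200 and 6756 in Ctl mice and 7884, 8697, 8741, 7755 and 7803 in Smad4del mice. The cohorts were separate, with a log2 fold change of 0.39 ± 0.081 (SE, limma adjusted p = 0.0165), and the call held in all 10 fits that left out 1 mouse. Me1, cytosolic malic enzyme, had 3109, 5025, 4637, 4597 and 5006 against 5474, 6254, 5959, 6655 and 6541 (log2 0.48 ± 0.127 (SE), limma adjusted p = 0.0428), and its call held in 4 of these 10 fits.

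Detoxification genes known as NRF2 targets rose for 2 of 31 tested genes by limma, and 20 of the 31 were above 0 with a median of 0.22. At an unadjusted p under 0.05 by limma were 13 of the 31, where 27.4% of all tested genes were. DESeq2 on 10 mice called 9 higher and 0 lower, where 6.01% of all tested genes were called higher, and edgeR called 2 and 0. Gsta4, a glutathione transferase for 4-hydroxynonenal and other products of lipid peroxidation, had 1486, 1569, 1574, 1539 and 1541 in Ctl mice and 2871, 4034, 2808, 2735 and 2114 in Smad4del mice. The Ctl mice were tightly grouped and each Smad4del mouse lay above them. Gsta4 rose by 0.89 ± 0.137 on the log2 scale (SE; limma adjusted p = 0.00468), the smallest p of all 5 lists, and it held in all 10 fits that left out 1 mouse. Glutathione transferase genes have close relatives, among which reads can be split, so the level of a single one is uncertain.

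Aldh1a1, a retinaldehyde dehydrogenase, had 3213, 3644, 2961, 3144 and 3738 against 4577, 5066, 4547, 4194 and 5008, again without overlap (log2 0.49 ± 0.088 (SE), limma adjusted p = 0.00872). Its call, too, held in all 10 fits. Fth1, the ferritin heavy chain and the most abundant gene of the list, had 66994 ± 19688 and 54494 ± 10884 (adjusted p = 0.391). Hmox1, heme oxygenase, is named after its values were seen, as a classical target outside the rule for named genes. It had 10844, 2901, 2678, 4650 and 1564 in Ctl mice and 3832, 1357, 1192, 1103 and 957 in Smad4del mice. A5215 was the highest of all mice, and A5216 the highest of the Smad4del mice but below the Ctl mouse A5626. The log2 fold change of Hmox1 was -1.31 ± 0.488 (SE, limma adjusted p = 0.113). It was -0.18 (adjusted p = 0.688) with the macrophage marker level in the model and -1.26 (adjusted p = 0.0249) without A5215 and A5216.

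With the macrophage marker level in the model 4 of the 7 genes that rose did not pass either, namely Gss (log2 0.35, adjusted p = 0.0580), Idh2 (0.34, adjusted p = 0.0694), Ggct (0.70, adjusted p = 0.0815) and Me1 (0.26, adjusted p = 0.189). Of the 10 called genes, the 7 that rose kept their sign under each of 17 other settings, while Slc3a2 turned to 0.03 with the endothelial marker level as a covariate, and Aldh1a1 and Gsta4 stayed called under 16 of them. The exception for these 2 was the endothelial marker level as a covariate, under which no pathway gene was called. The values of the 7 that rose were smaller there. The log2 fold change was 0.09 ± 0.122 (SE) for Idh2, 0.11 ± 0.229 for Me1 and 0.14 ± 0.157 for Prdx6. It was 0.29 ± 0.145 for Gss, 0.55 ± 0.343 for Ggct, 0.59 ± 0.264 for Gsta4 and 0.39 ± 0.175 for Aldh1a1. Without the mice with the highest macrophage marker level (A5215 and A5216) Gss, Me1, Idh2, Aldh1a1, Gsta4, Gpx3 and Slc3a2 passed and Ggct, Prdx6 and Gpx8 did not.

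**Figure D5:**
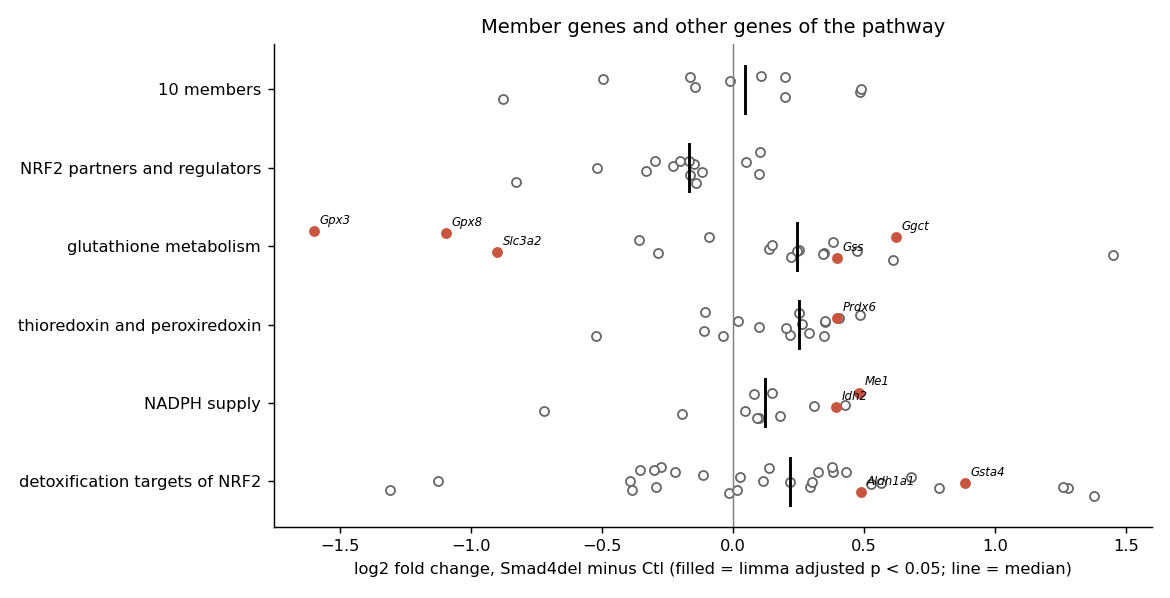
Log2 fold change, Smad4del minus Ctl (x axis), of the 10 NRF2 pathway genes and of the genes of 5 further lists (y axis), with 1 point per gene, filled where the limma adjusted p is under 0.05, and a line at the median. The 10 genes have no filled point; 7 genes of the other lists are filled to the right of 0 and 3 (Gpx3, Gpx8 and Slc3a2) to the left.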

How the data were processed

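Reactive cholangiocytes of 5 Ctl and 5 Smad4del mice were analysed with 1 library per mouse, named by the mouse numbers of the labels. The deposited signal values are read counts per gene that the authors divided by a size factor of each mouse (DESeq2 1.14.1, R 3.3.2). Before that, trimming was with Trimmomatic 0.36, alignment to GRCm38.p5 with STAR 2.5.2b, and counting per GENCODE M12 gene with featureCounts (subread 1.5.0p3). The processing notes also list mm9. Unique and multi-mapping reads were counted in separate runs, and the sources used here do not say which of these is in the table.

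Whole reads were recovered from the step of each mouse (100% of values whole at a relative tolerance of 1e-06). In A5217 the step is 0.998, close to 1, and count tests were also run without it. As in the other mice, 0% of its values above 0 are whole numbers before division by the step. Of 49568 genes, 22557 were at 0 in all mice. Limma 3.58.1 (R 4.3.3, trended prior) was fitted to log2(normalized count + 1) of 14870 genes with Benjamini-Hochberg adjustment; fold changes on this scale understate those of low genes. For single genes an exact permutation test, two-sided, was added. DESeq2 1.42.0, edgeR 4.0.16, other pseudocounts, filters, scalings, weights and covariates (Xist, markers, number ranges) and leaving out mice were alternatives. The fit was tested on simulated data.

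The members, lists and alternatives were chosen with earlier results of these data known, and leaving out A5215 and A5216 together was chosen after seeing the marker levels. Named were the 10 genes, in each list up to 4 called genes per direction, or the 2 of smallest p, with the gene of highest mean, the 5 genes most alike, and Smad4. Positions and exon overlaps are from GENCODE M21 on GRCm38. Litter and batch are not in the labels used here.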

Additional observations from a re-analysis of the deposited data

Results flagged for a closer look

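In 20 genes (the 10 NRF2 pathway genes and the 10 called genes of the further lists), each cohort of 5 mice was checked for a mouse far from the others relative to the range. Of 40 such groups 4 were found, where chance gives about 1 in 20. In Txnrd1 the Smad4del mouse A5218 was low at 3281 normalized reads, with the others at 4280 to 4679. The Smad4del mouse A5216, highest of its cohort in macrophage and leukocyte markers, was high for Gpx3 at 1032 (others 516 to 633) and low for Gpx8 at 60.1 (others 112 to 119). The Ctl mouse A5215, highest of its cohort in those markers, was low for Me1 at 3109 (others 4597 to 5025). The part of other cells in these values was not tested.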

How the results depend on the processing

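Calls depended on the setting as follows, and the cause was not tested. The 362 genes called higher became 209 with no filter, 626 with median scaling, 579 with quantile normalization, 166 with the macrophage marker covariate, 894 with DESeq2, 89 with edgeR without A5217 and 191 without A5215 and A5216. The 697 called lower became 426 with the macrophage covariate, 1290 with DESeq2 and 265 with edgeR without A5217. The 7 pathway genes called higher became 12 with median scaling, 12 with a term for mouse number range, 20 with DESeq2 and 3 with edgeR without A5217, and the 3 called lower became 1 with no filter, 0 with the macrophage covariate, 5 with the number range and 0 with edgeR without A5217. With the endothelial covariate all 4 counts were 0. Of the 10 members 1 was called higher with DESeq2, and 1 was called lower with DESeq2 and with the hepatocyte covariate. Leaving out each mouse gave 105 (without A5217) to 563 (without A5447) genes higher, 329 (without A5217) to 852 lower, 4 (without A5221, A5217 or A5218) to 17 (without A5447) pathway genes higher, 0 (without A5221 or A5626) to 4 lower, and 0 to 1 members higher. Without A5217, A5218 or A5624 1 pathway gene was lower; 160 to 206 genes were higher without A5215, A5221 or A5624, and 145 without A5218; 364 to 462 were lower without A5215, A5221 or A5218.

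Among uncalled members the sign turned for Keap1 (0.0538 with median scaling, 0.0361 with quantile normalization, 0.00723 with array weights, 0.0342 with the hepatocyte covariate, 0.0132 with the number range, 0.0154 with DESeq2, 0.0245 and 0.00552 with edgeR on 10 and 9 mice, 0.112 without A5215 and A5216, and -0.0928 to 0.138 leaving out 1 mouse, above 0 without A5221, A5626 or A5216), for Nfe2l2 (-0.0140) and Slc7a11 (0.328) with the macrophage covariate, and for Txnrd1 (0.585) and G6pdx (0.222) with the endothelial covariate. The other 5 members kept their sign under each setting run. No mouse number is shared between cohorts and the labels tie no mouse to a litter, so single mice were not paired, and the range of mouse numbers was the only such term fitted.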
